A study of Arabidopsis thaliana with 4 samples.

Results

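The 55 genes described here are nuclear genes of *Arabidopsis* that encode the light-harvesting antenna, the subunits of photosystem I and photosystem II, the small subunit of Rubisco and its activase, and enzymes of the Calvin cycle and of electron transport. They were listed by locus from what their products do, and not by any measured value, but with earlier results of these data known. A chromatin loop was counted for a gene when one of its anchors overlapped the region from 1 kb upstream of the transcription start site (TSS) to the transcription termination site in TAIR10. Of the 55 genes, 54 had such a loop, and their loops used 61 of the 15694 anchors in the data. In all, 17797 of 27444 protein-coding nuclear genes had a loop. The exception among the 55 was *LHCB2.1*, an antenna gene that overlapped no anchor.

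The data are lists of loops from H3K4me3 ChIA-PET, which enriches chromatin carrying the active-promoter mark H3K4me3 and ligates DNA ends that lie close together in the nucleus. Shoots of two-week-old seedlings were compared between wild-type Columbia (Col-0) and *myc2*, a mutant of the transcription factor MYC2, a basic helix-loop-helix regulator of jasmonate signalling. Both were grown at 22 °C with 16 h light and 8 h dark and fixed by 2 cross-linkers in turn, EGS (1.5 mM, 30 min) and formaldehyde (1%, 10 min). There were 4 samples, 2 per genotype. The authors combined the 2 samples of each genotype, so that 1 loop list per genotype was compared and no test between genotypes was possible. The *myc2* allele was not given in the sources used here. No jasmonate treatment was named for these samples.

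Photosystems I and II are pigment-protein complexes of the thylakoid membrane that turn light into electron flow. Antenna proteins bind chlorophyll and pass excitation energy to them, LHCB proteins mainly to photosystem II and LHCA proteins to photosystem I. The Calvin cycle, which starts at Rubisco, uses the resulting ATP and NADPH to fix carbon dioxide. Many nuclear genes of this kind are highly transcribed in green tissue, and their proteins are imported into the chloroplast. Transcription of the listed genes was not examined here.

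A loop is supported by paired-end tags (PETs), each of which is one ligation between the 2 anchors. The Col-0 list started at 10 PETs and the *myc2* list at 5 PETs. A loop that is absent from a list may therefore have PETs below the number at which the list starts. In Col-0 36723 loops were listed with 745505 PETs, and in *myc2* 32312 loops with 297390 PETs. The tags in each anchor, which measure the H3K4me3-enriched chromatin recovered there, do not depend on the PET minimum. All intervals below are 95% intervals that cover counting error only, and not the spread between plants or libraries. At *MYC2* itself the ratio of *myc2* to Col-0 tags was 0.3995 (0.375 to 0.425), against a median of 0.775 over all anchors. Of 14 root markers 4 had a loop, with 1269 to 3732 tags in Col-0 and 939 to 2732 in *myc2*. All 4 had fewer partners, that is anchors joined to them, in *myc2* (median change -2.5), among them *SCR* with 11 and 7 and *GL2* with 7 and 4. Among all genes with a loop, 50.3% had fewer partners and 10.6% lost at least 3. These counts are at the unequal PET minimums of the lists, 10 in Col-0 and 5 in *myc2*. Of 12 markers of other shoot cell types 4 had a loop, with fewer partners at 2, the same number at 1 and more at 1. Their part in the results was not tested.

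MYC2 is known to bind the G-box, CACGTG, a palindrome that reads the same on both strands. The 250 bases before each RefSeq gene start were searched for it, for CACATG, a weaker MYC2 site, and for the I-box, GATAAG, an element known from light-regulated promoters. CACATG and GATAAG were searched on both strands. A G-box lay in this window of 11 of the 55 genes (20%, 11.6 to 32.4) and of 6.49% of all 27444 promoters. An I-box lay in 13 of the 55 (23.6%, 14.4 to 36.4) and in 12.3% of all promoters. CACATG lay in 4 of the 55 (7.27%, 2.86 to 17.3) and in 11.1% of all promoters. The sequences below show the promoters of the genes on which the comparisons turn. They are a pair of paralogues of which one has no such motif (*PSAH2* and *PSAH-1*), an antenna gene with 3 more partners in *myc2* (*LHCB2.3*), a photosystem II gene and a Rubisco gene with few partners left in *myc2* (*PSBQ-2* and *RBCS2B*), and the Calvin cycle gene with the lowest tag ratio (*PRK*). They run from 5′ to 3′ on the coding strand, with G-boxes and I-boxes on either strand in capitals, and come from RefSeq (TAIR10.1, whose nuclear chromosomes are those of TAIR10). *PSAH2* is at chr1:19454548-19454797 on the plus strand, *PSAH-1* at chr3:5469595-5469844 on the minus strand, *LHCB2.3* at chr3:10255656-10255905 on the plus strand, *PSBQ-2* at chr4:2673244-2673493 on the minus strand, *RBCS2B* at chr5:15382072-15382321 on the minus strand, and *PRK* at chr1:11531949-11532198 on the plus strand.
PSAH2: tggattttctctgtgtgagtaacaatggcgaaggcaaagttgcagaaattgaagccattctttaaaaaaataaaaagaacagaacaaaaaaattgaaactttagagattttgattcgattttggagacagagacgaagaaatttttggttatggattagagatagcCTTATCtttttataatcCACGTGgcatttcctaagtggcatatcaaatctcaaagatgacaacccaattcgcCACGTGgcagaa
PSAH-1: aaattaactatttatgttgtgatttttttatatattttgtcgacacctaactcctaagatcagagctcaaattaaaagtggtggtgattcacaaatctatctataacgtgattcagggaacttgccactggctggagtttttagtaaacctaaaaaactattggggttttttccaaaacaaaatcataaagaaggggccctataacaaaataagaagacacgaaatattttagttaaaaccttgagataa
LHCB2.3: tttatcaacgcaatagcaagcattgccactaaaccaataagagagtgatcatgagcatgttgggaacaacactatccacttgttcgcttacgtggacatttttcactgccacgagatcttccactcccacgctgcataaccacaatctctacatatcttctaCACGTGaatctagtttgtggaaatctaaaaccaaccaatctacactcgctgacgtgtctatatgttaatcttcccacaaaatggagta
PSBQ-2: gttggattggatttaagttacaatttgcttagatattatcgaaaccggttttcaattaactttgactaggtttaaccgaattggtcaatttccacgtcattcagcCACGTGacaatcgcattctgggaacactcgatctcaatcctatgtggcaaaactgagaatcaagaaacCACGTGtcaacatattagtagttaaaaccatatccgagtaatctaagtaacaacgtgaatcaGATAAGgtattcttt
RBCS2B: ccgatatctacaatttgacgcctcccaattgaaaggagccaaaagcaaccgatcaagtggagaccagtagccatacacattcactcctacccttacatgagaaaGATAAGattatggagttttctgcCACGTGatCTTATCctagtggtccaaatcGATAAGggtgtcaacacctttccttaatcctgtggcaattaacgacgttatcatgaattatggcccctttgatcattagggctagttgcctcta
PRK: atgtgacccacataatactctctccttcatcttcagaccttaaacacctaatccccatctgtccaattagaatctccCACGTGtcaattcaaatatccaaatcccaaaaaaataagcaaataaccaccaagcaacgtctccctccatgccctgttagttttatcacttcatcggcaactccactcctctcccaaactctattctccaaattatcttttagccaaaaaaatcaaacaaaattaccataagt

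*PSAH2* and *PSBQ-2* each held a pair of G-boxes in this window, as did *PSBQA*, whose sequence is not shown, while *RBCS2B* held a G-box between I-boxes. A match is a description of these letters and not of binding. The 11 genes with a G-box were *LHCB2.3*, *LHCB4.1*, *LHCB6*, *AT1G76570* (LHCB7), *LHCA4*, *PSAE-2*, *PSAH2*, *PSBQA*, *PSBQ-2*, *RBCS2B* and *PRK*. Of these, 8 had fewer looping partners in *myc2* than in Col-0, as did 19 of the 43 genes with loops and no G-box. The share over all genes with a loop was 50.3%. The median change was -1 partner (range -4 to 3) with a G-box and 0 (range -6 to 3) without. The median tag ratio was 0.789 (0.608 to 0.843) with a G-box and 0.766 (0.644 to 0.998) without. The ranges overlapped in both measures. With the Col-0 minimum raised to 13 PETs, only *PSAH2*, *PSBQ-2* and *RBCS2B* of the 11 genes had fewer partners in *myc2*. *LHCB2.3*, *LHCB4.1*, *LHCB6*, *AT1G76570* and *PSBQA* then had more, and *LHCA4*, *PSAE-2* and *PRK* the same number. Without a G-box, *LHCB4.2*, *LHCA2*, *LHCA3*, *PSAF*, *PSAH-1* and *PSBW* then had fewer. A link between the motif and the loss of partners was not tested.

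The anchors of these genes mostly covered whole genes. The main anchor of a gene, that with the largest overlap, covered a median of 100% of the gene (quartiles 92.6% and 100%, n = 54), against 32.1% over all 17797 genes with a loop. It covered at least 90% of the gene in 43 of the 54 (79.6%, 67.1 to 88.2), against 4.84% of all genes. The genes were shorter, with a median length of 1491 bases against 2394, but among genes of 0.7 to 2 kb the median coverage was still 100% in 47 of the listed genes and 49.7% in 5793 others. The anchor began at a median of -99.5 bases from the TSS and reached past the end of the gene in 37 of 54. The main anchors were 850 to 4339 bp wide, with a median of 1928 bp, and 85.2% (74.3 to 92.0) of all the genes' anchors spanned at least 1.5 kb, against 13.1% of all anchors. Of the 54 main anchors 38 also overlapped the region of another gene.

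Tags were numerous in these anchors in both genotypes. The main anchors held a median of 3010 tags in Col-0 (613 to 9142) and 2264 in *myc2* (432 to 7438), against medians of 1470 and 1156 over all anchors. Of the 54, 29 were among the top 10% of anchors by Col-0 tags. Per kb of anchor the order turned, with a median of 1456 tags in Col-0 against 1608 over all anchors, so the high totals went with the width of the anchors. The anchor of *RCA* (AT2G39730, chr2:16570746-16573692), which encodes Rubisco activase, was first of all anchors by tags in both lists, with 9142 and 7438 tags over 4283 bp. Its 2134 tags per kb in Col-0 ranked only 2580th.

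The ratio of tags in *myc2* to Col-0 at these genes was close to that over all anchors. Over the 59 of their anchors that had 300 Col-0 tags or more, the median ratio was 0.776 (quartiles 0.744 and 0.812), against 0.775 (0.721 and 0.827) over all anchors. A ratio under 0.620, the lower limit set around the median, was called at 3.13% of all genes and at 1 of the 54. That gene was *PRK* (AT1G32060, chr1:11532199-11534639), which encodes phosphoribulokinase, the enzyme that makes the Rubisco substrate. Its anchor had 2658 Col-0 tags and 1617 *myc2* tags, and the ratio was 0.608 (0.572 to 0.647). A ratio over the upper limit, 0.969, was called at 0.847% of all genes and at 1 of the 54. This was *PSBX* (AT2G06520, chr2:2587729-2588448), which encodes a small subunit of photosystem II. It had 2495 Col-0 tags and 2489 *myc2* tags, and the ratio was 0.998 (0.943 to 1.06). Its anchor also overlapped the region of another gene, and was counted for no gene when each anchor was given to 1 gene at most. The 52 other genes lay between the limits. The counting interval alone excluded the median of all anchors at 23 of the 54 genes, 11 of them above and 12 below it. The lowest of these after *PRK* was *PSBW*, a further small subunit of photosystem II, at 0.644 (0.575 to 0.722) from only 779 and 502 tags. In whole shoots, fewer cells carrying the mark and less of it per cell cannot be told apart.

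**Figure D1:**
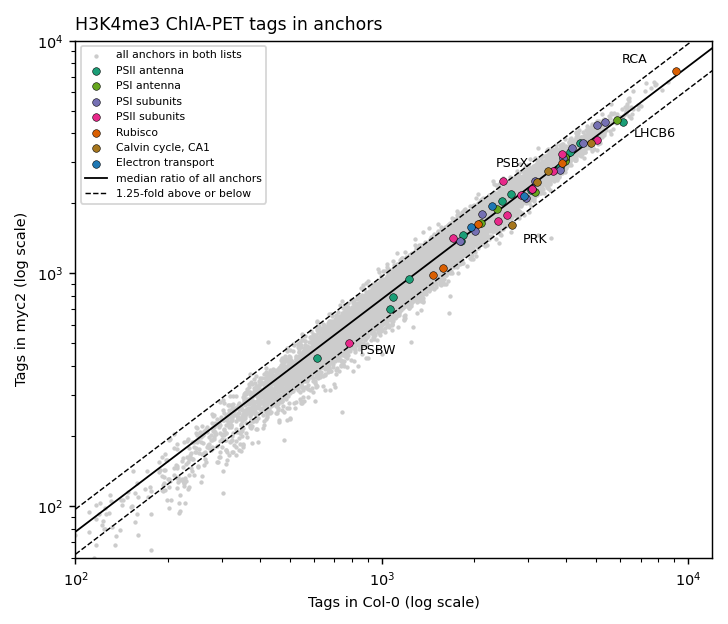
Tags in anchors of the Col-0 list (x axis, log scale) against the same anchors in the myc2 list (y axis, log scale), with all anchors in grey and the main anchors of the 54 genes in colours by family. The solid line is the median ratio of all anchors, 0.775, and the dashed lines are the limits of 0.620 and 0.969; PRK lies under the lower line, PSBX over the upper, and RCA at the top end.

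A looping partner is a distinct anchor joined by a loop to an anchor of the gene. The genes had a median of 7 partners in Col-0 (quartiles 5 and 9) and 6.5 in *myc2* (5 and 9), against 5 and 4 over all genes. A gene with at least 5 partners was taken as a hub, after the study's hub analysis. There were 43 hubs among the 54 genes in Col-0 (79.6%) and 41 in *myc2* (75.9%), against 55.1% and 47.6% of all genes. Among genes whose main anchor held 2076 to 3937 Col-0 tags, the quartiles of these genes, the 26 listed genes and the 4483 others had the same medians, 7 partners in Col-0 and 6 in *myc2*. *LHCB6*, with 18 partners in Col-0, had the most, followed by *RCA*, *PSBP-1* and *CA1* with 16 each. *LHCB2.2* and *PSBX* had the fewest, 1 each. *LHCB2.2* was joined to *SCL21* at 77.1 kb by 10 PETs in Col-0 only, and to an anchor without a gene by 5 PETs in *myc2* only.

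Fewer partners were listed in *myc2* than in Col-0 for 27 of the 54 genes (50%), the same number for 10 and more for 17 (31.5%). Over all genes with a loop 50.3% had fewer and 25.4% more. A loss of at least 3 partners was seen at 10 of the 54 genes (18.5%), against 10.6% of all genes, and a gain of at least 3 at 2 (3.7%), against 2.76%. Of these genes, 46 were a hub in at least one genotype. A hub was called partially disassembled when it lost at least 3 partners and a share of at least 0.3 of them, and entirely disassembled when the share was at least 0.7. A hub formed or increased had a gain of at least 3 partners and of at least 0.3 of those in *myc2*. The disassembled classes held 7 of the 46 hubs (15.2%), all of them partially disassembled, against 13.9% of all hubs. Among genes with 2076 to 3937 tags, 3 of 26 of the listed genes (11.5%, 4.00 to 28.98) and 14.01% of the 4483 others lost at least 3. The Col-0 minimum was also raised to 13 PETs, which sets both minimums in proportion to the PETs of the strongest loops. Then 9 of the 54 genes had fewer partners in *myc2* and 37 more (68.5%). Of all genes 17.9% had fewer and 57.9% more. With a minimum of 10 PETs in both lists, 51 of the 54 and 97.6% of all genes had fewer. The direction of most genes' change in partners thus turned with the PET minimum.

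**Figure D2:**
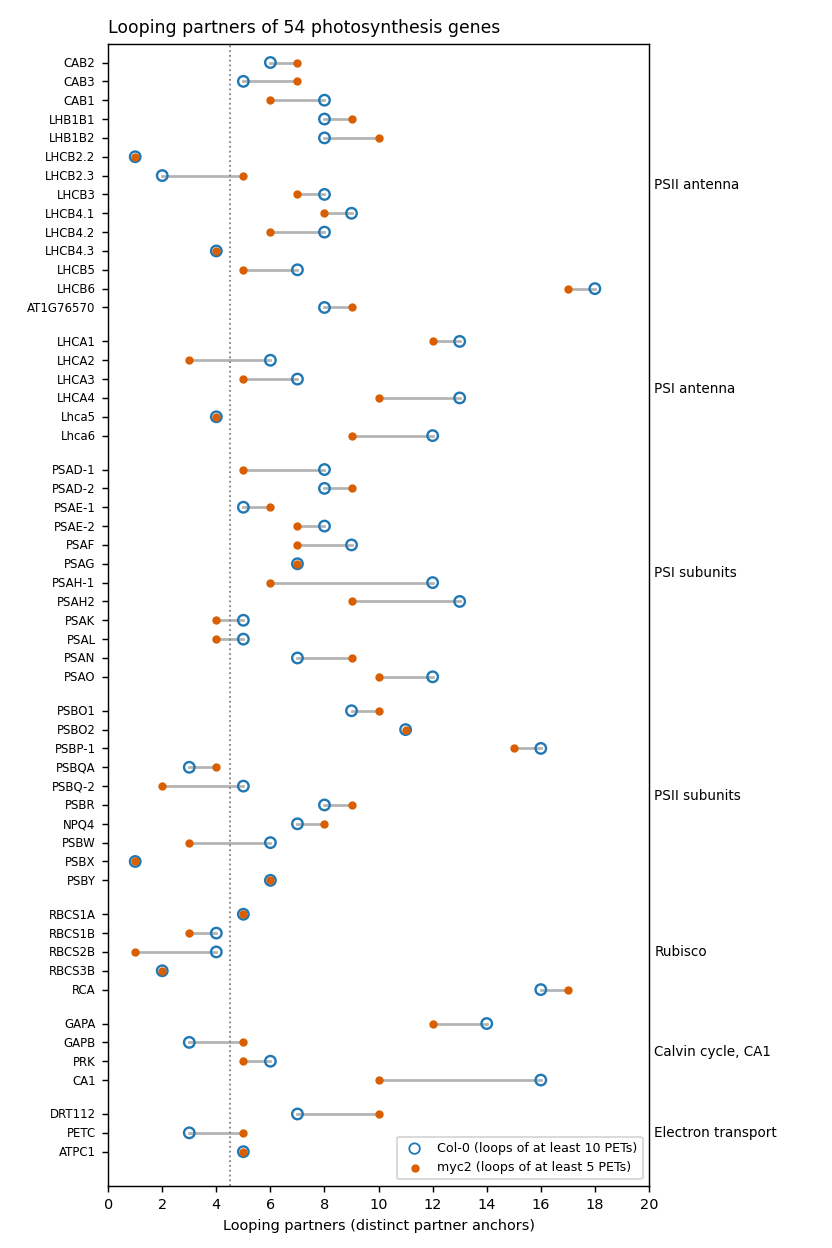
Looping partners (x axis, number of distinct partner anchors) of each of the 54 genes with a loop (y axis, by family), with open circles for Col-0 and filled points for myc2. Points to the right of the dotted line are hubs, with at least 5 partners; CA1 and PSAH-1 have the longest bars, with 6 fewer partners in myc2 each, and LHCB2.3 and DRT112 have 3 more.

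Counted by loops, the 54 genes had 429 loops in Col-0 and 390 in *myc2*, of which 303 were in both lists. Of the Col-0 loops 126 were not listed in *myc2* (29.4%, 25.3 to 33.9), against 32.2% (31.8 to 32.7) of the other loops. Of the *myc2* loops 87 were not listed in Col-0 (22.3%, 18.5 to 26.7), against 22.96% of the others. The share lost was lower for loops with more PETs. At 10 to 11 PETs 69.0% of the genes' Col-0 loops were lost (57.5 to 78.6, n = 71), at 20 to 29 PETs 11.2% (6.03 to 20.0, n = 80), at 30 to 39 PETs 0 of 42 (upper limit 8.38%) and at 40 PETs or more 0 of 71 (upper limit 5.13%). Over all loops the shares of these 4 classes were 65.2%, 10.5%, 1.58% and 0.114%. Of the 87 loops listed only in *myc2*, 48 had exactly 5 PETs, the lowest number listed, and 1 had at least 10. This was a loop within the 4339 bp anchor at *LHCB6*, with 11 PETs.

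For loops in both lists the sums were 8941 Col-0 PETs and 3651 *myc2* PETs, and their ratio was 0.408 (0.393 to 0.424), against 0.432 (0.430 to 0.434) for the other shared loops. The intervals of these ratios did not overlap, but with 1 list per genotype the spread between plants is unknown. The 2 sets also differed in strength, with a median of 23 Col-0 PETs per shared loop against 20 for the others. Weak shared loops cannot have a low ratio, because the *myc2* list starts at 5 PETs. Among the strongest loops of the whole data, with 40 PETs or more, the ratio was 0.394. Loops of equal strength were not compared, so a difference of these genes was not tested. By family the ratio ran from 0.376 (0.340 to 0.415) for photosystem II subunits to 0.430 (0.397 to 0.466) for the LHCB antenna, with overlapping intervals. Of the 303 shared loops 2 had at least as many PETs in *myc2* as in Col-0. They were *LHCB6* with *AT1G15840*, 11 and 13 PETs, and *PSAN* with *PI-4KBETA1*, 10 and 10 PETs.

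**Figure D3:**
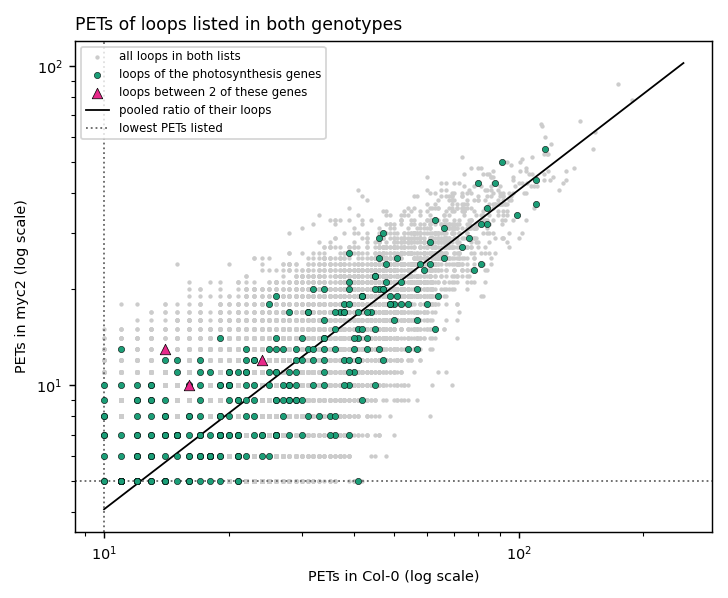
PETs in Col-0 (x axis, log scale) and in myc2 (y axis, log scale) of each loop listed in both genotypes, in grey for all loops, in green for the 54 genes, and as triangles for loops that join 2 of them. The solid line is the pooled ratio of the genes' loops, 0.408, and the dotted lines are the lowest PETs in each list, 10 and 5; the green loops lie among the grey ones along the line.

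The median span of these genes' loops was 14.97 kb in Col-0 (*myc2*, 14.05 kb), against 11.2 and 11.4 kb for the other loops. In Col-0 63.9% (59.3 to 68.4) were shorter than 20 kb, against 80.0% (79.6 to 80.5) of the others. From anchors with 2076 to 3937 Col-0 tags the median span was 12.1 kb for these genes and 12.7 kb for the other loops, and 71.4% (64.5 to 77.5) and 74.8% (74.2 to 75.4) were shorter than 20 kb. The strongest loops were short. *PSAO*, which encodes a photosystem I subunit, was joined to *AT1G08350* at 5.78 kb by 116 PETs in Col-0 and 55 in *myc2*. *LHCA1* was joined to *AT3G54910* at 4.47 kb by 110 and 37 PETs. *GAPA* was joined to *AT3G26670* at 5.09 kb by 110 and 44 PETs.

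The PSII antenna genes (LHCB, 14 with loops) had a median of 8 partners in Col-0 (1 to 18) and 7 in *myc2* (1 to 17), with 6 genes lower, 2 equal and 6 higher in *myc2*. *LHCB2.3* (AT3G27690, chr3:10255906-10257489), one of the genes for the major trimeric antenna, had 2 partners in Col-0 and 5 in *myc2*. Both Col-0 loops were kept, with *AT3G27700* (51 and 25 PETs) and *RST1* (23 and 12 PETs), and the 3 added loops, with *AT3G27610*, *CARA* and *AT3G27770*, had 5 PETs each. *LHCB2.3* was thereby classed as a hub formed or increased in *myc2*, as were 3.79% of all hubs. In Col-0 loops of 5 PETs would not have been listed.

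*LHCB6* (AT1G15820, chr1:5446462-5447880), which encodes a minor antenna protein of photosystem II, had 18 Col-0 partners and 17 *myc2* partners, with 13 shared. Its loops reached *TPL*, the gene of the corepressor TOPLESS, at 27.5 kb with 16 PETs in Col-0 and 10 in *myc2*. Its loop with *AT1G15870* had 29 PETs in Col-0 and was not listed in *myc2*, which made it, with *LHCA3* and *MLO6*, the loop with most PETs among those lost at these genes. The anchor at *LHCB6* covers more of a neighbour, *AT1G15830*, than of *LHCB6*. Among the paralogues for the minor antenna protein CP29, *LHCB4.1* had 9 partners in Col-0 and 8 in *myc2*, *LHCB4.2* had 8 and 6, and *LHCB4.3* had 4 and 4. *LHCB4.3* also had the fewest tags of all 54 genes, 613 and 432. *LHCB3*, *LHCB5*, and *AT1G76570* (LHCB7) had 7 to 8 partners in Col-0 and 5 to 9 in *myc2*. One *LHCB5* anchor lost its loop with *AT4G10280* (21 PETs in Col-0), while the other *LHCB5* anchor was joined to that gene by 7 PETs in *myc2* only.

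The LHCB1 genes lie in a group of 3 on chromosome 1 (*CAB3*, *CAB2* and *CAB1*, also called LHCB1.2, LHCB1.1 and LHCB1.3) and a pair on chromosome 2 (*LHB1B2* and *LHB1B1*). *CAB1* had 8 partners in Col-0 and 6 in *myc2*, *CAB2* had 6 and 7, and *CAB3* had 5 and 7. *LHB1B1* had 8 and 9 and *LHB1B2* 8 and 10. The *CAB2* anchor reaches within 1 kb of the *CAB3* start and is counted for both genes, and the *LHB1B2* anchor is likewise counted for *LHB1B1*. In Col-0 all 3 genes of the chromosome 1 group were joined to each other. *CAB2* and *CAB1* were joined by 16 and 10 PETs, in both lists. *CAB3* was joined to *CAB2* by 13 PETs and to *CAB1* by 13 PETs in Col-0, and neither loop was listed in *myc2*. The pair on chromosome 2 was joined only in *myc2*, by 5 PETs. All 3 genes of the first group were also joined to *CARB*, which encodes a subunit of carbamoyl phosphate synthetase, with 47 and 20 PETs (Col-0 and *myc2*) at the *CAB3* anchor, 46 and 13 at *CAB2*, and 21 and 9 at *CAB1*.

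Reads from these genes can be hard to place. Over 804 coding bases, *CAB1* and *CAB2* differed at 31, *CAB1* and *CAB3* at 29, and *CAB2* and *CAB3* at 35. The first 120 coding bases show how long the identical runs are, with bases that differ from *CAB1* in capitals (RefSeq, TAIR10.1, coding strand from 5′ to 3′). They lie at chr1:10478071-10478190 on the plus strand for *CAB1*, chr1:10475773-10475892 on the minus strand for *CAB2*, and chr1:10473127-10473246 on the minus strand for *CAB3*.
CAB1: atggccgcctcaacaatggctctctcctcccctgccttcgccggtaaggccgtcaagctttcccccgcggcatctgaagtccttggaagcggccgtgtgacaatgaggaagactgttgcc
CAB2: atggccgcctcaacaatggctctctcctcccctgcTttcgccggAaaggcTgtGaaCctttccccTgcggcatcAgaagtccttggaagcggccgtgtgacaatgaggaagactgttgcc
CAB3: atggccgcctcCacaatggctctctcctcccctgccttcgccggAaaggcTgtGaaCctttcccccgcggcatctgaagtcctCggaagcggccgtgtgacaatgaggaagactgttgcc

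*CAB2* differed from *CAB1* at 7 of these 120 bases and *CAB3* at 6. Of all 50-base words in the anchors of the 5 LHCB1 genes, 86.0% to 91.7% occurred once in the genome, against a median of 100% over all anchors. *LHCB2.2*, at 84.9%, and the Rubisco group below were the other low ones, with *LHCA2* at 91.8%. Within the genes themselves, 78.6% of the words were unique in *LHCB2.1*, which overlapped no anchor, and 74.1% in *LHCB2.2*. How the reads of these copies were placed was not tested.

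The PSI antenna genes (LHCA) had a median of 9.5 partners in Col-0 (4 to 13) and 7 in *myc2* (3 to 12). Of the 6 genes 5 had fewer partners in *myc2*, 1 had the same number and none had more. *LHCA2* had 6 and 3 partners, *LHCA3* 7 and 5, *LHCA4* 13 and 10, *Lhca6* 12 and 9, and *LHCA1* 13 and 12, while *Lhca5*, for a sparse antenna protein that joins photosystem I to the NADH dehydrogenase-like complex, had 4 in both. Their shared loops had 1231 Col-0 PETs and 483 *myc2* PETs (ratio 0.392, 0.352 to 0.436). Of the 193 Col-0 loops with at least 20 PETs at the 54 genes 9 were lost. This family had 30 of the 193 and 4 of the 9. They joined *LHCA3* to *MLO6* (29 PETs) and to *TIM13* (20 PETs), *LHCA2* to *BRH1* (25 PETs) and *LHCA4* to *MDH* (22 PETs). *MLO6* remained joined to *LHCA3* through another anchor, with 19 PETs in Col-0 and 8 in *myc2*. *LHCA2* (AT3G61470) was the only disassembled hub of the family, and its remaining strongest loop, with *CYSC1*, had 84 PETs in Col-0 and 32 in *myc2*. With the Col-0 minimum at 13 PETs the family's counts became 5 and 3 for *LHCA2*, 6 and 5 for *LHCA3*, 10 and 12 for *LHCA1* and equal for the other 3, so the family no longer had 1 direction.

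The photosystem I subunit genes (PSA, 12 genes) had a median of 8 partners in Col-0 (5 to 13) and 7 in *myc2* (4 to 10), with 8 lower, 1 equal and 3 higher. The family had 3 of the 7 disassembled hubs, *PSAH-1*, *PSAH2* and *PSAD-1*.

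*PSAH-1* (AT3G16140, chr3:5467987-5469594) and *PSAH2* (AT1G52230, chr1:19454798-19455668) encode the H subunit of photosystem I, where the mobile antenna docks during state transitions, and their coding sequences agreed at 87.0% of 438 bases. *PSAH-1* had 12 partners in Col-0 and 6 in *myc2*, with no loop added. Its 6 lost loops had 11 to 17 PETs and its 6 kept loops 17 to 61 PETs in Col-0. *PSAH2* had 13 and 9 partners, again with none added, and its 4 lost loops, with *TRZ3*, *ABA2*, *BGLU18* and an anchor without a gene, had 16 to 19 PETs. Of its 9 kept loops 4 had only 13 to 14 PETs in Col-0, fewer than any of those lost. With the Col-0 minimum at 13 PETs *PSAH-1* had 8 and 6 partners, while *PSAH2* still had 13 and 9 and was the only one of the 7 hubs to stay in its class. The anchor at *PSAH2* covers more of *AT1G52220*, and is counted for that gene when each anchor is given to 1 gene. When connecting genes were counted in place of partner anchors, *PSAH2* had a change of 0.

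Both *PSAH* genes were joined to the same kinds of neighbour, which were picked out after their values were seen. *PSAH-1* was joined to *PDIL1-6* (61 and 24 PETs) and *RABG3c* (17 and 6 PETs). *PSAH2* was joined to *PDIL1-5* (30 and 12 PETs) and *RABG3d* (22 and 13 PETs). The PDIL1 genes encode protein disulfide isomerase-like proteins and the RABG3 genes small GTPases of vesicle traffic. All 4 loops were in both lists.

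**Figure D4:**
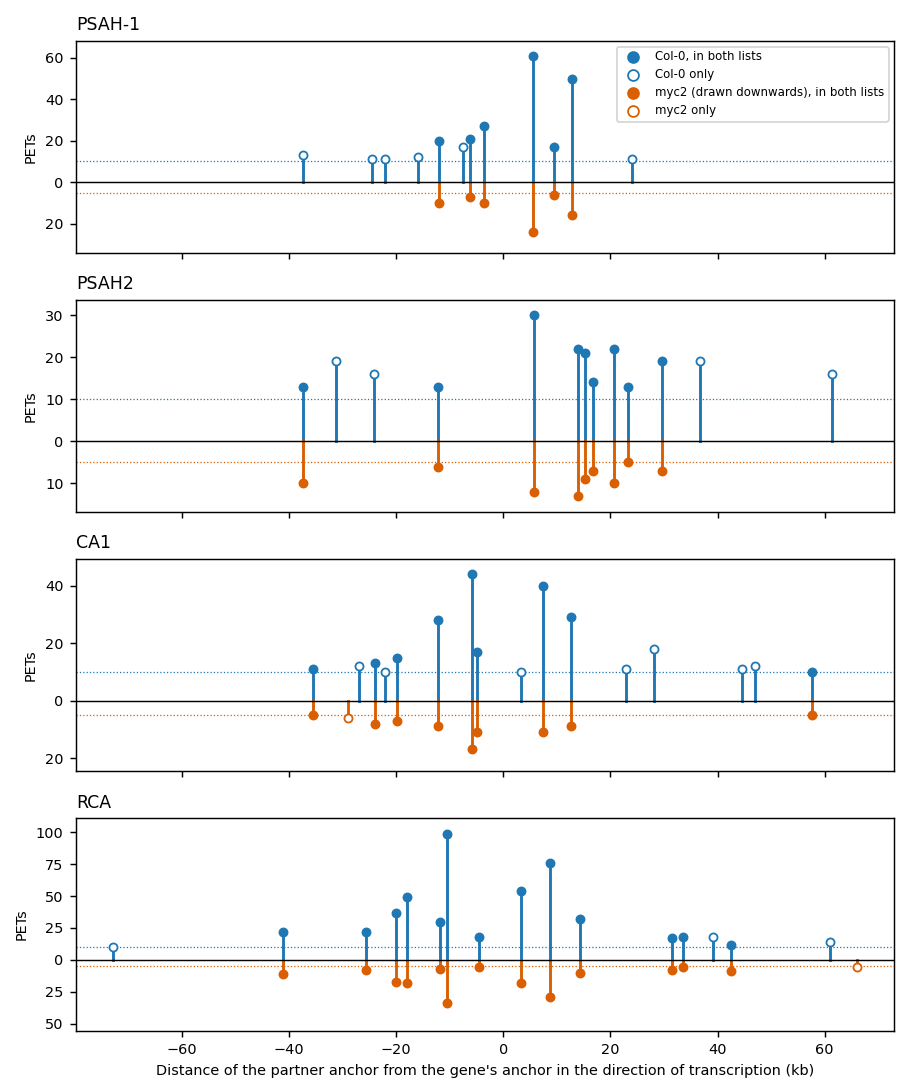
PETs (y axis, linear; Col-0 upwards and myc2 downwards) of the loops of PSAH-1, PSAH2, CA1 and RCA against the distance of the partner anchor in kb (x axis, positive in the direction of transcription), with open circles for loops of 1 list only. Dotted lines mark 10 PETs in Col-0 and 5 in myc2; the open Col-0 circles have 11 to 17 PETs at PSAH-1, 10 to 18 at CA1 and 16 to 19 at PSAH2. The 3 RCA loops with other chromosomes and its loop within 1 anchor are not drawn.

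*PSAD-1* and *PSAD-2* encode the D subunit, part of the ferredoxin docking site. *PSAD-1* had 8 partners in Col-0 and 5 in *myc2*, and *PSAD-2* had 8 and 9. The loops lost at *PSAD-1* had 11 to 14 PETs, and with the Col-0 minimum at 13 PETs it had 4 and 5 partners, the other direction. The anchor at *PSAD-1* is counted for a neighbour, *AT4G02760*, when each anchor is given to 1 gene. Its change was also 0 when connecting genes were counted in place of partner anchors. *PSAE-1* and *PSAE-2*, for the E subunit of the same docking site, had 5 and 6 partners and 8 and 7 partners. Of the rest, *PSAN*, for a lumenal subunit near plastocyanin, had 7 partners in Col-0 and 9 in *myc2*, *PSAO* 12 and 10, *PSAF*, for the plastocyanin-docking subunit, 9 and 7, and *PSAG*, *PSAK* and *PSAL* 7, 5 and 5 in Col-0 and 7, 4 and 4 in *myc2*. *PSAG* and *PSAK* lost 1 loop each of over 20 PETs, with *BRL1* (22 PETs) and *ABCC12* (24 PETs).

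The photosystem II subunit genes (PSB, 10 genes) had a median of 6.5 partners in Col-0 (1 to 16) and 7 in *myc2* (1 to 15), with 3 lower, 3 equal and 4 higher. Paralogues of the oxygen-evolving complex differed in their counts. *PSBQ-2* had 5 partners in Col-0 and 2 in *myc2*, while *PSBQA* had 3 and 4. *PSBO1* had 9 and 10 partners and *PSBO2* 11 and 11. *PSBP-1* had 16 and 15 partners, and its loop with *AT1G06650* had 81 and 24 PETs. *PSBW* had 6 and 3 partners and, with *PSBQ-2*, was a disassembled hub. Both *PSBQ-2* and *PSBW* left this class with the Col-0 minimum at 13 PETs. The loops lost at *PSBQ-2* had 11 to 13 PETs and those lost at *PSBW* 10 to 14 PETs. *PSBR* and *NPQ4*, which encodes the PsbS protein needed for energy dissipation in excess light, had 8 and 9 and 7 and 8 partners. *PSBY* had 6 in both. *PSBX* was joined to *RPA1A* by 11 PETs in Col-0 only and to *HEN2*, at 307.6 kb, by 7 PETs in *myc2* only.

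Of the Rubisco small subunit genes, *RBCS1A* lies alone on chromosome 1 and had 5 partners in both genotypes. *RBCS3B*, *RBCS2B* and *RBCS1B* lie side by side on chromosome 5 and were joined to each other in Col-0. *RBCS3B* and *RBCS2B* were joined by 24 PETs in Col-0 and 12 in *myc2*. *RBCS3B* and *RBCS1B* were joined by 14 and 13 PETs, a ratio of 0.929 (0.402 to 2.13). *RBCS2B* and *RBCS1B* were joined by 10 PETs in Col-0 only. Outside the group, *RBCS2B* and *RBCS1B* were both joined to *AT5G38460* and *RAD23D* in Col-0, and *RBCS1B* alone in *myc2*. *RBCS2B* thus had 4 partners in Col-0 and 1 in *myc2*, *RBCS1B* 4 and 3, and *RBCS3B* 2 and 2, both of them Rubisco genes. With the Col-0 minimum at 13 PETs *RBCS2B* had 2 and 1 partners and *RBCS1B* 2 and 3. The shared loops of *RBCS1B* had 40 and 28 PETs over 3 loops, a ratio of 0.7 (0.416 to 1.16). Of the 52 genes with shared loops it was the 1 whose interval excluded the pooled ratio of 0.408. Among 52 such intervals a single exclusion is not unusual from counting error alone. The 3 loops were also weak, with 12 to 14 PETs in Col-0, where the *myc2* minimum of 5 PETs keeps low ratios out. Whether *RBCS1B* differs from the other genes was not tested. The coding sequences of *RBCS2B* and *RBCS1B* agreed at 97.3% of 546 bases, and 84.9% to 90.5% of the 50-base words in the 3 anchors were unique. Of the 7 loops that joined 2 of the 54 genes, 6 were in the Col-0 list, 4 in the *myc2* list and 3 in both, and all lay within the LHCB1 and the Rubisco groups.

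**Figure D5:**
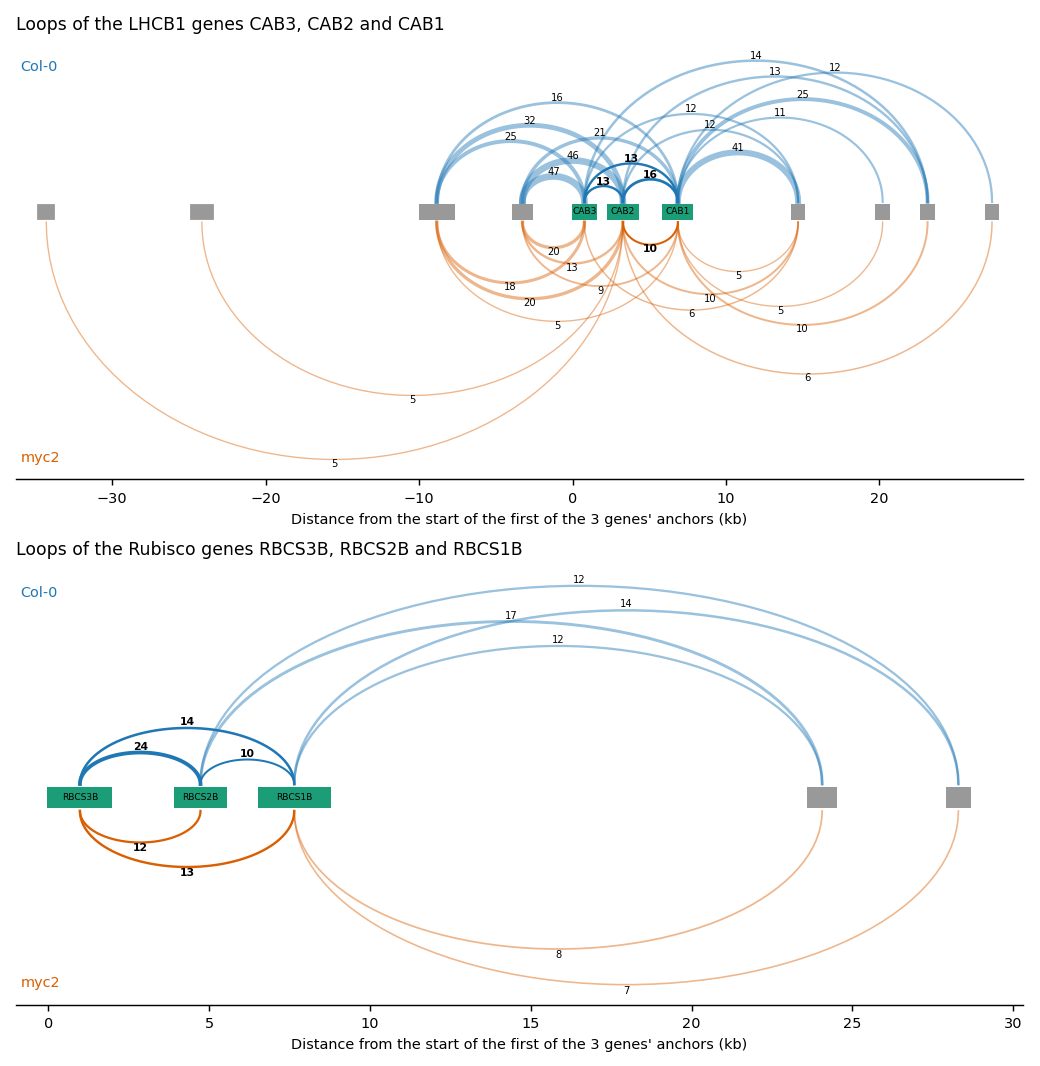
Loops (arcs) of the anchors of CAB3, CAB2 and CAB1 (upper map) and of RBCS3B, RBCS2B and RBCS1B (lower map), with Col-0 above and myc2 below the line of anchors and the PETs of each loop beside its arc. The x axis is the distance in kb from the start of the first of the 3 anchors, green boxes are the genes' anchors, grey boxes partner anchors, and bold numbers loops between the genes: 13, 16 and 13 PETs in Col-0 and 10 in myc2 in the upper map, 24, 14 and 10 in Col-0 and 12 and 13 in myc2 in the lower.

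*RCA* had 16 Col-0 partners and 17 *myc2* partners, with 13 shared. Its loops, with 1 inside its own anchor, summed to 557 and 215 PETs. The strongest joined it to *AT2G39750* (99 and 34 PETs) and *AT2G39710* (76 and 29 PETs). Of the 4 loops listed only in *myc2*, 3 joined it to other chromosomes, to *DDF1* (5 PETs), *PKS2* (6 PETs) and *AT5G56220* (5 PETs). The 54 genes had 6 loops between chromosomes in *myc2*, of 256 such loops in all, and none in Col-0. A further 4 *myc2* loops, at *GAPB*, *LHCA3*, *PSBY* and *LHCB4.1*, joined places over 1 Mb apart with 5 to 8 PETs, of 116 over 1 Mb in the whole *myc2* list and 3 in the Col-0 list. All had fewer PETs than the lowest number in the Col-0 list.

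Among the Calvin cycle genes, *GAPA* and *GAPB* encode the subunits of the chloroplast glyceraldehyde-3-phosphate dehydrogenase. *GAPA* had 14 partners in Col-0 and 12 in *myc2*, and *GAPB* 3 and 5. Among the 54 genes *GAPB* (AT1G42970) had the longest loops found in both lists. Both of its anchors were joined to *PMI1*, which encodes a protein of light-dependent chloroplast movement, at 150.6 kb (20 and 9 PETs) and 148.5 kb (14 and 8 PETs), with only 5 genes between. Over the whole data 7 loops longer than 100 kb were in both lists, so these were 2 of 7. *PRK* had 6 partners in Col-0 and 5 in *myc2*, and its shared loops had a PET ratio of 0.407 (0.287 to 0.569), near that of all the genes although its tag ratio was the lowest.

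*CA1* (AT3G01500, chr3:194426-198664), for the chloroplast carbonic anhydrase, had 16 partners in Col-0 and 10 in *myc2*. It lost 7 loops of 10 to 18 PETs and gained 1, with *AT3G01580*, of 6 PETs. Its strongest loops, with *LSF1* (44 and 17 PETs) and *CYP38* (40 and 11 PETs), were kept. *LSF1* encodes a protein of starch breakdown and *CYP38* a thylakoid lumen protein of photosystem II assembly. With the Col-0 minimum at 13 PETs *CA1* had 8 and 10 partners, so the direction turned.

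None of the 3 electron transport genes among the 54 had fewer partners in *myc2*, while further genes of this kind, given below, went both ways. *DRT112*, one of the plastocyanin genes (*PETE2*), had 7 partners in Col-0 and 10 in *myc2*. *PETC*, for the Rieske protein of the cytochrome b6f complex, had 3 and 5, and *ATPC1*, for the gamma subunit of the ATP synthase, 5 and 5. The loops that *DRT112* had only in *myc2* had 5 PETs each, and its loop with *SMT2* from one of its anchors had 21 PETs in Col-0 and was not listed in *myc2*, while its other anchor kept a loop with *SMT2* (17 and 6 PETs). *DRT112* and *LHCB2.3* were the 2 hubs of the 46 that were formed or increased (4.35%). With 10 PETs or more in both lists *DRT112* had 4 fewer partners in *myc2* (-4), so the direction turned, and *LHCB2.3* had the same number in both. With only the anchor of largest overlap counted for each gene, *DRT112* had 1 more partner and was no longer in this class.

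Further genes of photosynthesis were read beside these. All 27 further genes of the Calvin cycle, electron transport and the photosystems had a loop, with 14 lower, 5 equal and 8 higher in *myc2* and medians of 9 partners in both genotypes. In electron transport, *PETE1*, the other plastocyanin gene, had 11 and 9 partners, *FED A* 9 and 8, *FNR1* 13 and 12 and *PGR5-LIKE A* 6 and 4. More were listed in *myc2* for *FD1* (7 and 8), *FNR2* (4 and 6) and *PGR5* (0 and 1), and the same number for *ATPD* and *PDE334*. *EMB3119*, the gene of a ribose-5-phosphate isomerase, had 9 and 5 partners and the transketolase gene *AT2G45290* 5 and 2, the 2 of 25 hubs that were disassembled. Of 23 chlorophyll synthesis genes 22 had a loop, with 8 lower, 5 equal and 9 higher. *GUN5*, for the H subunit of magnesium chelatase, had 13 Col-0 and 18 *myc2* partners. The geranylgeranyl reductase gene *AT1G74470* had 11 and 6 partners and *LIN2*, for a coproporphyrinogen oxidase, 9 and 6, the 2 of 19 hubs that were disassembled. *HEMB1* had 8 and 11 and *HEMC* 9 and 12, both for early steps of tetrapyrrole synthesis. The median tag ratios of the lists were 0.811 and 0.773, and no gene of either passed the limits of 0.620 and 0.969.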

How the data were processed

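Reads were processed by the authors with ChIA-PET Tool V3, from linker filtering and mapping to TAIR10 through removal of redundant PETs. Loops were called between given anchors, made by merging the ChIP-seq peaks of H3K4me3 from Col-0 and *myc2*, and kept by an FDR limit and a PET minimum set by depth. For the ChIA-PET reads, the sources used here do not say which aligner ran within that tool. The deposited lists, 1 per genotype with 2 replicates combined, hold the count of PETs per loop and the count of tags per anchor, unscaled. For each loop the authors' p-value, its FDR and the −log10 of both are deposited too. The highest FDR was 3.18e-10 in Col-0 and 0.000111 in *myc2*.

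Genes came from RefSeq TAIR10.1 (27444 protein-coding). Loops were shared when both anchors were the same, since the anchors of both lists form 1 set without overlaps. Hub classes followed the study's formulas, with partner anchors in place of connecting genes. Shares have Wilson intervals, and ratios have intervals from the exact binomial share of *myc2*, all at 95%. Tag ratios were called at genes with at least 300 tags in Col-0. Unique sequence is the share of 50-base words found once in the genome. The scripts were tested on simulated data. The genes and lists were chosen with earlier results of these data known, and the comparison within a range of tags was added after seeing the data. Named singly are, per family, up to 5 genes with the largest change of partners, those with most or fewest partners, those past the tag limits, pairs joined by a loop and paralogues, with their strongest partners, and up to 4 genes of each other list. Loops that were lost at 20 PETs or more, and genes outside this rule, were named after their values were seen. The alternatives were other PET minimums, a stricter FDR, other rules that tie anchors to genes, loops within chromosomes only, and connecting genes in place of anchors. Tools were matplotlib 3.10.9, scipy 1.17.1, pandas 2.3.3, numpy 2.4.6 and Python 3.11.15.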

Additional observations from a re-analysis of the deposited data

How the results depend on the processing

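The PET minimum moved most of the counts. With loops of at least 10 PETs in both lists, 51 of the 54 genes had fewer partners in *myc2* (27 as reported). Of 43 hubs 40 were disassembled (7 of 46 as reported). A share of 63.6% of the Col-0 loops was lost (29.4% as reported) and the shared PET ratio was 0.425 (0.408 as reported). *DRT112* then had a change of -4 partners in place of 3. With the Col-0 minimum raised to 13 PETs, 9 genes had fewer partners and 17.96% of the loops were lost. Of 42 hubs 1 was disassembled (*PSAH2*) and 11 were formed or increased (2 as reported). *PSAD-1* then had 1 more partner in *myc2* and *CA1* 2 more. Over all genes 97.6% and 17.9% had fewer partners under these 2 settings, and 93.6% and 1.49% of all hubs were disassembled. The shares of all loops lost and of all hubs increased were not computed under them. An FDR under 0.001 removed no loop. The other rules for anchors, loops within chromosomes and connecting genes left 25 to 29 genes with fewer partners and 6 to 9 disassembled hubs. Of 96 recomputed changes of the 12 genes that changed by at least 3 partners, 74 stayed within 1 partner of the reported value, 19 moved further and 3 reversed. The 96 include the FDR setting, which could change none of them. Under the PET minimums most of the 12 genes moved or reversed. Only *PSBQ-2* and *RBCS2B* stayed within 1 partner at 10 PETs in both lists. At 13 PETs in Col-0 only *LHCB2.3*, *LHCA2* and *PSAH2* did. The median tag ratio was 0.770 to 0.780 throughout. No paired analysis was possible because the replicates of a genotype were combined in 1 list, and for the same reason no replicate could be left out. Loops under 10 PETs in Col-0 or under 5 in *myc2* were not detectable in these lists.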
